A study of Mus musculus with 2 samples.

Results

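The regions described here are CTCF peaks of newborn mouse intestine whose summit lay outside every annotated gene, but close to one. From the optimal peak list, 11338 of the 71756 summits on chromosomes 1 to 19 (15.8%) were taken because they lay outside all genes of GENCODE M21, 1 to 20 kb from the nearest transcription start site (TSS), at a base that is not soft-masked as a repeat in the mm10 sequence. Within that list the choice used position and repeat masking alone, and no peak signal. The list itself had been filtered by how well peaks reproduce between the replicates. CTCF was mapped by chromatin immunoprecipitation and sequencing in whole intestine of mice of strain B6NCrl on postnatal day 0, in 1 group of 2 biological replicates. Each replicate was ground tissue combined from several dissections, so it averages all cell types of the gut wall over several mice, and their sex was not collected. The group carried no treatment or engineered allele that the labels name, and no second condition was measured. The results below are positions, levels and shares, with no test between conditions. Peaks of 1 factor give no level of a cell type marker, so the tissue label could not be checked from these files.

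CTCF is a DNA-binding protein with an array of zinc fingers that reads a long and asymmetric sequence motif. It halts the cohesin complex as cohesin extrudes loops of chromatin, and loops form mostly between sites whose motifs point at each other. Sites that stand between an enhancer and a promoter can act as insulators, and sites near a gene can also bring an enhancer to it. The motif's direction is therefore given here as that of an arrow, along the strand whose letters resemble CCACCAGGGGGC when read 5′ to 3′.

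Of the 71756 summits, 27181 lay outside genes. Among these, 3913 were under 1 kb from a TSS, 8070 were over 20 kb away and 15198 fell between the limits, of which 3860 were removed because the summit base was masked. The values near the limits are given as a description and rest on few summits. The 141 unmasked intergenic summits at 900 to 1000 bases had a median peak signal of 91.8 and a motif share of 58.9%. The 123 at 1000 to 1100 bases had 206 and 79.7%, while the whole bin of 1 to 2 kb had 157 and 74.6%. The 305 at 19000 to 20000 bases had 119 and 76.1%, and the 277 in the next kb outward had 122 and 77.6%. Peak signal is the authors' own enrichment value of a peak, used here only for ranking peaks and for describing them inside 1 list.

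The sites of 4 members show the range of what CTCF held in this class. Each is printed on the strand of the motif arrow (5′ to 3′, mm10), with the 19 bases of the motif in capitals and 10 bases on each side. The first is the strongest member, the second the strongest of 3 members near Gata5, the third the motif-bearing member of median signal and the fourth a strong member with a low motif score.
Enah, chr1:181888953-181888971, plus strand: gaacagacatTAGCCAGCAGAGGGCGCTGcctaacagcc
Gata5, chr2:180347305-180347323, minus strand: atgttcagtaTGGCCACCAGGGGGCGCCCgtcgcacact
D6Ertd527e, chr6:87101403-87101421, plus strand: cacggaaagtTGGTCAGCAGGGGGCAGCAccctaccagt
Hif1an, chr19:44582877-44582895, plus strand: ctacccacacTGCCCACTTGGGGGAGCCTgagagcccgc
The motif score is the log-odds score of a 19-base matrix built from strong peaks of other chromosomes, and a site was called where it passed 9.87 on even-numbered or 10.04 on odd-numbered chromosomes. The Gata5 site scored 25.9, the Enah site 23.1, the D6Ertd527e site 19.99 and the Hif1an site 12.1. Their peak signals were 506, 756, 212 and 691, so the order of signals was not the order of scores.

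The CTCF motif lay under most of the regions. A site stood no more than 100 bases from the summit in 8745 of 11338 members, or 77.1% (95% Wilson interval 76.3 to 77.9), where 72.3% of all optimal summits on these chromosomes had it and 67.7% of all unmasked ones. Intervals on shares and densities cover the counting of peaks only. In windows 1 kb to either side of the members the share was 4.61%, close to the 5% that the threshold sets. Between summit and motif centre the median distance was 7 bases. Members differed most from summits within 1 kb of a TSS, of which 49.9% (49.0 to 50.7) had a motif, and were close to unmasked intergenic summits over 20 to 100 kb from a TSS, with 76.6% (75.5 to 77.7). The 696 intergenic summits over 100 kb away had 80.7% (77.7 to 83.5), and unmasked intronic summits at 1 to 20 kb had 70.9% (70.2 to 71.6).

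Within the members the motif went with peak strength. Members were split into 10 equal groups by signal, from decile 1, the weakest, to decile 10. In decile 1, with signals of 4.51 to 25.2, 41.8% held a motif, and in decile 10, with signals of 436 to 756, 97% did. The 8745 members with a motif had a median signal of 212 and the 2593 without one 42.1. Motif score and signal had a Spearman rho of 0.443 over the members with a motif, given as a description, since the matrix was trained on strong peaks. Summits were also compared within 5 bands of 20 percentiles of the optimal list's signals. There members and intronic summits had nearly the same share in the strongest band (95.3% in each), in the next (85.0% and 84.4%) and in the weakest (44.7% and 43.0%). Between percentiles 20 and 40 members had 61.5% (59.2 to 63.8) and intronic summits 53.9% (52.1 to 55.7), and between 40 and 60 they had 72.1% (69.9 to 74.1) and 67.9% (66.2 to 69.6), with intervals apart. Summits over 100 kb away, which had the highest motif share of the 5 classes (80.7%) with a median signal of 71.9, were above members in the 4 weaker bands, from 59.7% (51.2 to 67.6) against 44.7% in the weakest to 94.1% (89.5 to 96.8) against 85.0%. Promoter summits had fewer motifs in each band, from 23.2% in the weakest to 87.3% in the strongest.

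**Figure D1:**
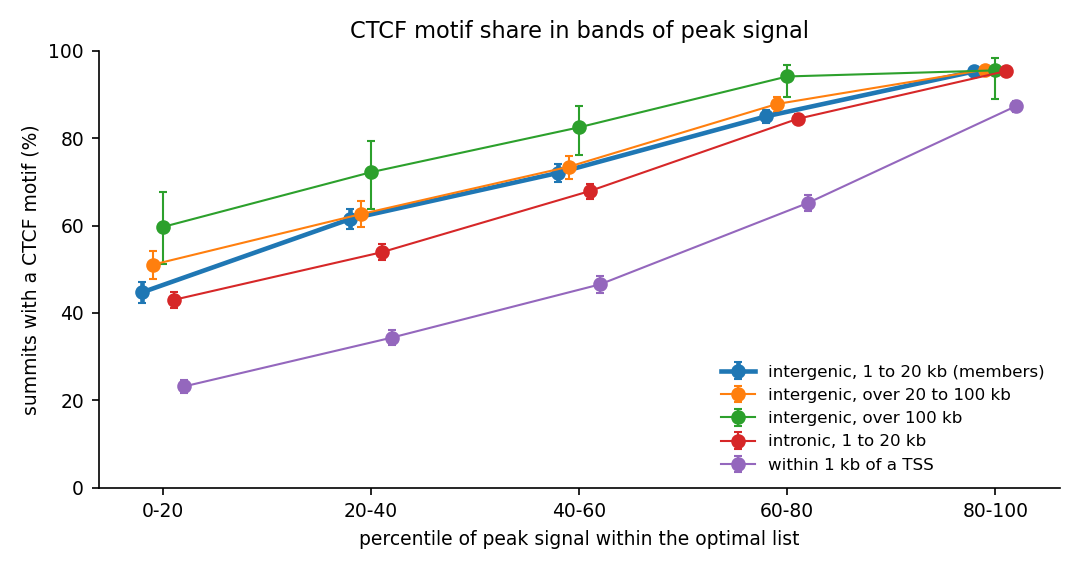
Share of summits with a CTCF motif within 100 bases (y axis, %) in 5 bands of peak signal (x axis, percentile within the optimal list) for the members and 4 other classes of unmasked summits; bars are 95% Wilson intervals. The line of summits within 1 kb of a TSS lies below the other classes in each band, and the members run from 44.7% to 95.3%.

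Sites varied widely in their letters around a rigid centre. Positions are counted from 1 at the 5′ end of the 19 bases. In members, position 5 was C in 99.0% of sites, position 10 was G in 99.6% and position 13 was G in 98.4%, while position 11 was G in 57.1% and A in 42.5%, and position 12 was G in 57.3% and T in 37.2%. Taking positions 4 to 15 as the core, 1708 different cores occurred. The most frequent, CCACCAGGGGGC, made up 198 of the 8745 sites (2.26%), followed by CCAGCAGAGGGC with 192, CCAGAAGAGGGC with 187 and CCACTAGGTGGC with 178. The 10 most frequent cores together covered 1650 sites (18.9%), and 876 cores were seen once.

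Cytosine-guanine pairs (CpG), where DNA methylation can block CTCF, were less frequent in the members' motifs than at promoters. A CpG lay inside the 19 bases in 39.5% (38.5 to 40.5) of the members' motifs, in 64.4% (63.2 to 65.5) of those within 1 kb of a TSS, and in 26.5% (23.0 to 30.3) of those over 100 kb away. At positions 15 and 16 the shares were 29.4%, 45.9% and 20.5%, and at positions 5 and 6 they were 5.29%, 20.4% and 3.38%. The sequence around the summits followed the same order. In 301 bases around the summit the median GC content was 48.5% in members, 58.8% at promoters and 44.5% over 100 kb away, and the median ratio of observed to expected CpG was 0.214, 0.599 and 0.154. Methylation was not measured in this series.

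Short words of other factors gave little contrast. The CTCF core word AGAGGGC occurred within 100 bases of the summit, on either strand, in 17.8% of members, AGGGGGC in 16.01%, AGGTGGC in 15.9% and AGATGGC in 11.2%. These words are part of what the matrix scores. Any of the 4 occurred in 55.1% of members, in 62.9% of those with a called motif and in 28.9% of those without. In windows 1 kb away the share was 15.5%. The AP-1 word TGACTCA was found in 4.02% of members (3.68 to 4.40) and 3.41% of flanking windows (3.09 to 3.76), and more often in members without a CTCF motif (5.82%) than in members with it (3.49%). The GATA word GATAAG was in 5.36% of members and 6.02% of flanks, the Cdx word TTTATGG in 2.12% and 2.63%, and the Hnf4 word CAAAGTCCA in 0.432% and 0.291%. A word match is a string of letters and does not show binding.

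The median member was stronger than most CTCF peaks, and 63.4% of members were above the list's median. The members' median signal was 145, with quartiles of 45.3 and 329, and stood at percentile 65.3 of the optimal list. All unmasked summits had a median of 91.1, at percentile 54.6. Intronic summits at the same distances had a median of 92.1, summits within 1 kb of a TSS 67.0, intergenic summits over 20 to 100 kb away 104 and those over 100 kb away 71.9. Of the members, 17.7% (17.0 to 18.4) were in the strongest 10% of the list, against 10.2% of all summits on these chromosomes and 12.4% (12.1 to 12.7) of the unmasked ones (members are unmasked by rule). With masked summits kept, the median percentile was 57.5.

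The replicates ranked the members alike, within a list that had already been filtered by reproducibility between them. Part of this agreement was therefore set by the choice of list. In 11209 members (98.9%) the summit lay inside a peak of both replicates' own lists, where 98.3% of all summits did. Over these the members' ranks had a Spearman rho of 0.979, where all summits had 0.957. The median rank was 25059 in replicate 1 and 25095 in replicate 2, of 300000 peaks in each list. The ranks differed by a factor of at most 1.5 for 90.1% of members and by more than 3 for 0.517%. A share of 90.6% (90.05 to 91.1) was also in the stricter conservative list, where 87% of all optimal summits on these chromosomes were. In decile 1 of the members this share was 37.4%, and it was 100% in each of deciles 5 to 10.

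Few members were missing from a replicate. The summits of 71 had no peak over them in replicate 1, 65 had none in replicate 2 and 7 had none in either. Those missing from replicate 1 had a median signal of 15.2, and 34 of them lay within 250 bases of another summit. The strongest was an exception, near Gapt on chromosome 13 (110368530 to 110369077), with a signal of 528, a motif and rank 701 in replicate 2. It is named here after its values were seen. Among all members 225 (1.98%) lay within 250 bases of another optimal summit, 116 of them in decile 1 (10.2% of that decile).

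Members became sparser with distance from genes. Counted per Mb of eligible sequence (intergenic, sequenced and unmasked), intergenic summits stood at 135 per Mb within 1 kb of a TSS (95% Poisson interval 130.1 to 139). Among members the density was 42.0 per Mb (39.5 to 44.6) at 1 to 2 kb, 39.8 at 2 to 5 kb, 37.3 at 5 to 10 kb and 32.0 (31.0 to 33.0) at 10 to 20 kb. Beyond the outer limit it was 21.8 at 20 to 50 kb, 13.0 at 50 to 100 kb and 7.0 (6.49 to 7.54) over 100 kb. The ratio of the density at 1 to 20 kb to that over 20 kb was 2.31 (2.24 to 2.38). The GC content of the eligible sequence changed alongside, from 43.3% at 1 to 2 kb to 38.9% over 100 kb, and its part in the density was not tested.

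**Figure D2:**
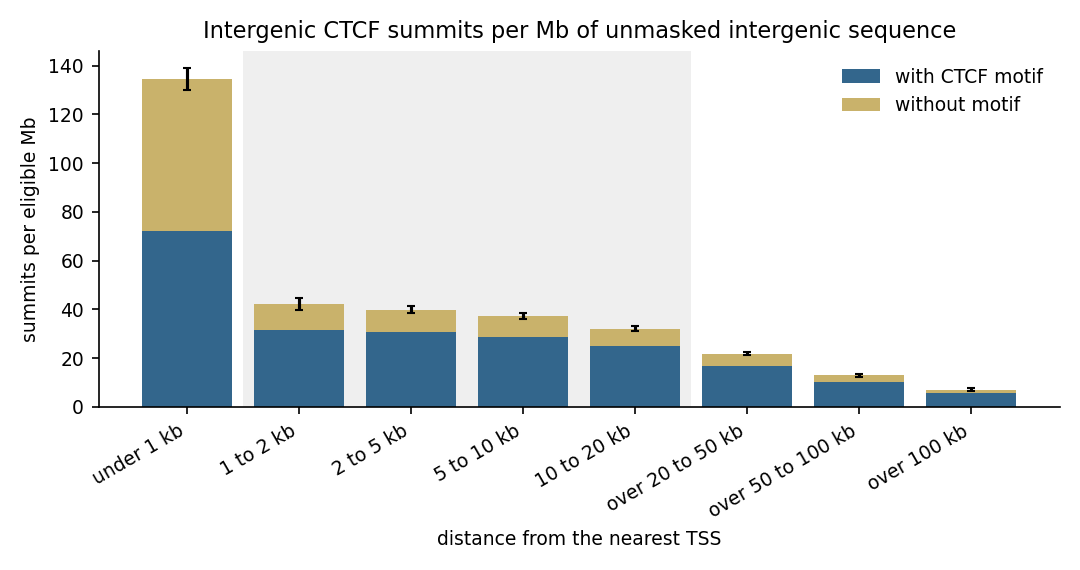
Intergenic CTCF summits per Mb of eligible sequence (y axis) by distance from the nearest TSS (x axis), split by whether a motif lay within 100 bases; bars are exact 95% Poisson intervals on the total and grey marks the members. The total goes from 135 per Mb within 1 kb to 42.0 per Mb at 1 to 2 kb. Between these bins summits without a motif go from 62.3 to 10.7 per Mb.

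Between the bin within 1 kb and that at 1 to 2 kb, summits without a motif went from 62.3 to 10.7 per Mb. Those with a motif went from 72.3 to 31.3 per Mb, a smaller drop. Each bin pools its distances, and right at the limit the counts were close. There were 141 summits at 900 to 1000 bases and 123 at 1000 to 1100. From 1 to 20 kb the share with a motif stayed between 74.6% and 77.6%. Signal and distance had a Spearman rho of -0.03 over the members, so within the limits the strength of a peak hardly went with its distance.

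Density followed the length of the gap between genes. A gap is the stretch between neighbouring genes, and 11333 of the members lay in 7660 gaps, of which 2457 held 2 or more. Members stood at 60.3 per Mb (57.4 to 63.3) in gaps under 10 kb, 48.4 in gaps of 10 to 20 kb, 40.5 (39.3 to 41.7) in gaps of 20 to 50 kb, 28.1 (26.8 to 29.3) in gaps of 50 to 100 kb and 16.2 (15.2 to 17.3) in gaps of 100 kb or more. Their median signal went the same way, from 187 in the shortest gaps to 106 in the longest, while the motif share stayed between 75.8% and 78.05%. Within gaps of 1 length class the density did not move with distance in 1 direction. In gaps under 10 kb it was between 57.5 and 62.9 per Mb in the 4 distance bins. In gaps of 10 to 20 kb it was higher farther out, with 44.1 (38.6 to 50.1) at 1 to 2 kb and 57.0 (51.3 to 63.2) at 10 to 20 kb. In gaps of 20 to 50 kb the density was 35.6 per Mb at 1 to 2 kb, 38.2 at 2 to 5 kb, 41.3 at 5 to 10 kb, 41.5 at 10 to 20 kb and 41.3 (38.5 to 44.3) over 20 kb. In gaps of 50 to 100 kb it was 28.1 at 1 to 20 kb and 26.7 (25.5 to 27.8) over 20 kb. In gaps of 100 kb or more it was lower farther out, with 21.6 (16.7 to 27.6) at 1 to 2 kb, 15.3 at 5 to 10 kb and 11.4 (11.0 to 11.8) over 20 kb. Gap length was compared after the density by distance had been seen.

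**Figure D3:**
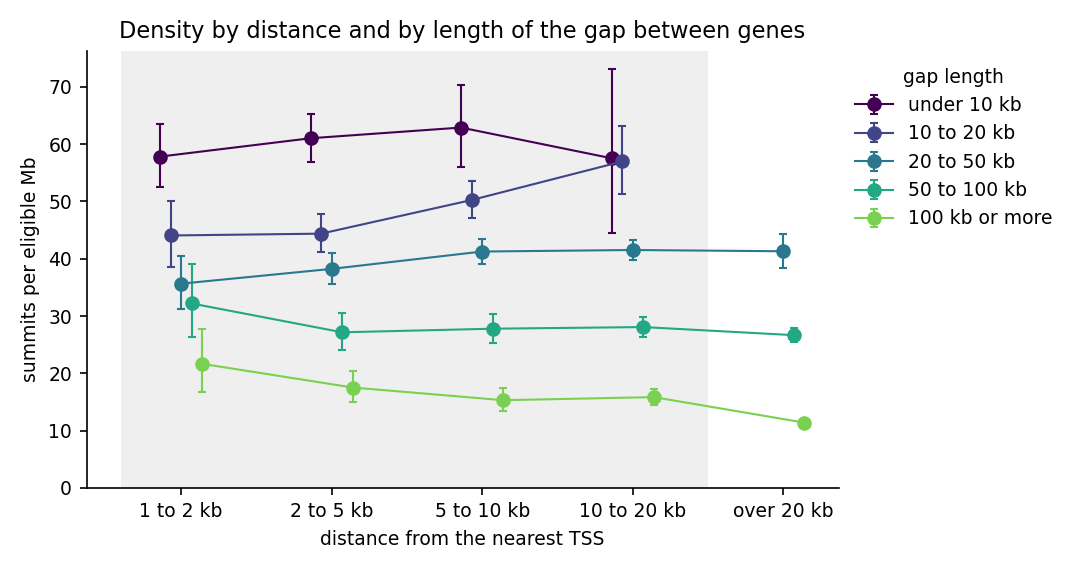
Intergenic CTCF summits per Mb of eligible sequence (y axis) by distance from the nearest TSS (x axis), with a line for each length class of the gap between genes; bars are exact 95% Poisson intervals and grey marks the members. The lines lie in the order of gap length, from 60.3 per Mb in gaps under 10 kb to 16.2 in gaps of 100 kb or more, and the line for 20 to 50 kb runs between 35.6 and 41.5. Gaps under 20 kb have little sequence beyond 20 kb from a TSS, so those points are left out.

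Members were densest on chromosome 11, with 59.6 per eligible Mb, and sparsest on chromosome 12, with 27.6 (25.2 to 30.2).

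Density also differed with the kind of gene next to a member. Members nearest to the TSS of a protein-coding gene numbered 5757 (50.8%, 49.9 to 51.7), while 34.8% of the eligible sequence was nearest to such a TSS, which gives 52.7 members per Mb. Members nearest to a long noncoding RNA stood at 33.7 per Mb, nearest to a small RNA gene at 27.7 and nearest to a pseudogene at 22.7. Median signals were 175 beside protein-coding genes, 116 beside long noncoding RNAs, 155 beside small RNA genes and 127 beside pseudogenes. In 2893 members (25.5%, 24.7 to 26.3) the nearest TSS itself had an optimal summit within 1 kb, and 15.5% of eligible sequence was nearest to such a bound TSS. Members stood at 59.4 per Mb there and at 31.8 per Mb near TSSs without a summit. Among protein-coding genes alone the 2 densities were 61.0 and 48.9 per Mb. Gap lengths were not matched in these comparisons.

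Upstream and downstream sides were used about equally once the sequence on each side was counted. Of the members, 62.0% (61.1 to 62.9) lay upstream of the nearest TSS, and so did 60.9% of the eligible sequence. The difference sat at 1 to 2 kb, where 82.0% (79.6 to 84.2) of members and 72.8% of the sequence were upstream. Densities there were 47.4 members per Mb (44.3 to 50.6) upstream and 27.8 (24.0 to 32.0) downstream. The eligible sequence in this bin was 18.7 Mb upstream and 6.98 Mb downstream, and the kinds of gene beside it were not matched between the sides. At 10 to 20 kb the densities were 31.2 per Mb upstream and 33.1 per Mb downstream, with intervals that overlap.

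The orientation of the flanking genes made a small difference. Gaps between genes that face each other with their ends (convergent) had 38.2 members per Mb (36.8 to 39.7), gaps between genes that start back to back (divergent) 36.1 (34.8 to 37.5) and gaps between genes of the same strand 35.2 (34.3 to 36.1). Convergent gaps and same-strand gaps had intervals that do not overlap, and the divergent interval overlaps both.

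The motif arrows did not point to the nearest TSS more often than away from it. They pointed toward it in 48.4% (47.4 to 49.5) of the members with a motif, in 50.1% (48.8 to 51.5) of those upstream and in 45.7% (44.0 to 47.4) of those downstream of the TSS. The value for downstream members is below 50% by more than its counting interval. With 1 TSS per gene, its 5′ end, the whole share was 49.7%, so the small excess away from the TSS depends on which TSSs are counted. Unmasked intergenic summits within 1 kb, which are not members, pointed toward the TSS in 59.6% (57.4 to 61.8).

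**Figure D4:**
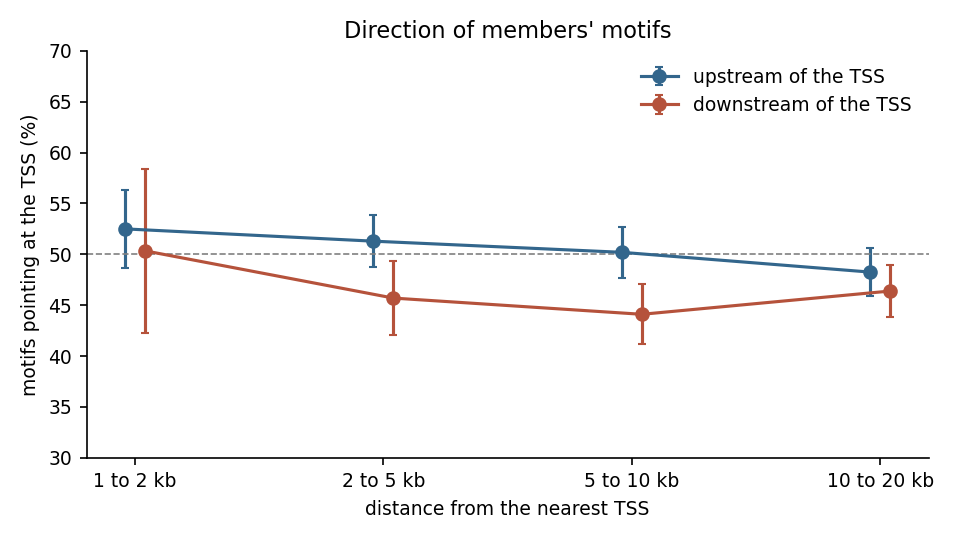
Share of members' motifs that point at the nearest TSS (y axis, %) by distance from it (x axis), for members upstream and downstream of the TSS; bars are 95% Wilson intervals and the dashed line is at 50%. Upstream members lie between 48.2% and 52.5%, and downstream members between 44.1% and 50.3%.

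Convergent pairs of motifs were the least frequent arrangement in both sets of pairs described here. Tandem pairs can lie on either strand, so more strand combinations count as tandem than as convergent or as divergent. For 1210 members with a motif, the strongest summit within 1 kb of the bound nearest TSS also had a motif. The arrows of such a pair pointed at each other in 18.8% (16.7 to 21.1), away from each other in 30.7% (28.1 to 33.3) and the same way in 50.5% (47.7 to 53.3). In another 947 of 2157 cases (43.9%) the summit at the TSS had no motif. Of 1846 pairs of neighbouring members with motifs in the same gap, 18.9% (17.1 to 20.7) were convergent, 25.4% (23.4 to 27.4) divergent and 55.8% (53.5 to 58.0) in tandem. The convergent and divergent intervals do not overlap in either set. The distance between the motifs of a pair, and the shares over pairs of all summits, are not given here.

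The gap with the most members was at the end of the immunoglobulin heavy chain locus. Between the small RNA gene Gm25622 and Igha, the constant region gene of immunoglobulin A, a gap of 40.6 kb (chr12:113214253-113254829) held 10 members. All 10 had a motif, and all 10 motifs lay on the plus strand, pointing at Igha. This end of the locus is known for an array of CTCF sites that bounds it, beyond a B cell enhancer region. The sites are printed in their order along the plus strand, as 19 motif bases in capitals with 10 bases on each side, because their common direction and their likeness carry the observation.
Site 1, chr12:113216115-113216133: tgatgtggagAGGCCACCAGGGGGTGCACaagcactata
Site 2, chr12:113217459-113217477: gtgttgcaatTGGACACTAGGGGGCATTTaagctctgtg
Site 3, chr12:113218083-113218101: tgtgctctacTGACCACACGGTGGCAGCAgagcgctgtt
Site 4, chr12:113220050-113220068: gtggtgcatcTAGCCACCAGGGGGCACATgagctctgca
Site 5, chr12:113220683-113220701: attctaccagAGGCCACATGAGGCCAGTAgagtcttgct
Site 6, chr12:113221405-113221423: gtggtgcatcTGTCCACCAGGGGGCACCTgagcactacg
Site 7, chr12:113222213-113222231: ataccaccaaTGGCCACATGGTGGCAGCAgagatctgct
Site 8, chr12:113222478-113222496: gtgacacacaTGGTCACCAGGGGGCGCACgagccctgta
Site 9, chr12:113222950-113222968: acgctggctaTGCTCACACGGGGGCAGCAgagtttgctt
Site 10, chr12:113224393-113224411: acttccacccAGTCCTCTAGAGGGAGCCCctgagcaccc
Sites 4 and 6 shared 33 of their 39 bases, flanks included, against a median of 20 over the 45 pairs. Sites 5 and 7 shared 28, as did sites 2 and 4 and sites 4 and 8. Of the bases shared by sites 4 and 6, 16 lay in the motif, and of those shared by sites 5 and 7, 14 did. Motif bases are alike in part because the matrix called them, and other called sites were not compared in this way.

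Their signals were spread over a range of more than 3-fold. From site 1 to site 10 the signals were 328, 254, 466, 281, 287, 168, 372, 132, 213 and 149, and the 4 lowest were among sites 6 to 10. The summits all lay within 10.2 kb of the Gm25622 end, and no member lay in the rest of the gap. Site 3 was the strongest in both replicates, at rank 1968 in replicate 1 and 3922 in replicate 2. Site 10 ranked 24475 and 25910. Sites 7 and 8 share 1 peak interval, so the replicate lists give them the same peaks.

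**Figure D5:**
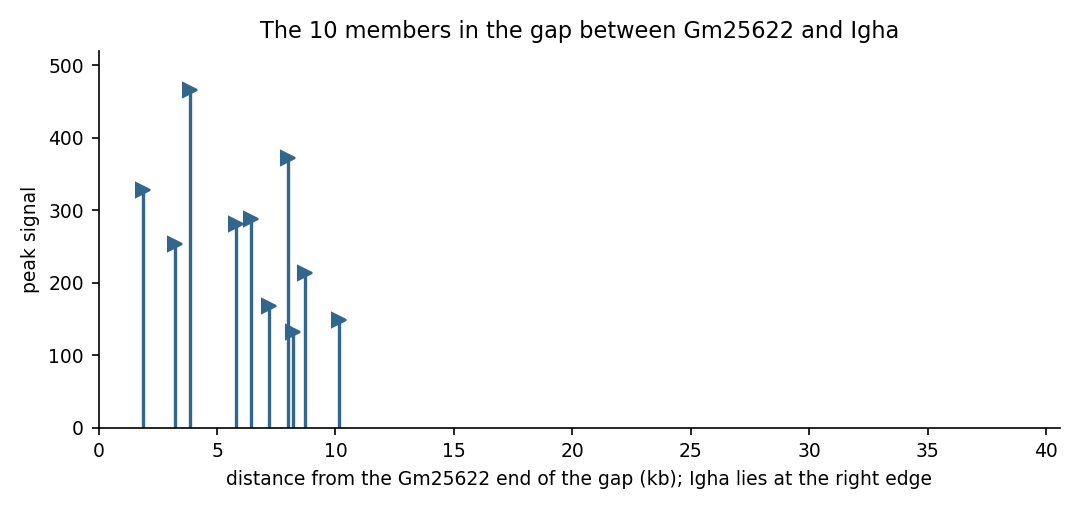
Peak signal (y axis) of the 10 members in the gap between Gm25622 and Igha against the distance of the summit from the Gm25622 end (x axis, kb); each triangle points the way the motif reads. The triangles all point toward Igha, and the signals run from 132 to 466.

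After it, 9 gaps of 24.5 to 73.4 kb tied at 7 members, with 2 to 7 motifs each. The named pair are the first of them in chromosome order. The gap of 39.2 kb between Tmem37 and Dbi on chromosome 1 held 7 members, with signals of 5.80 to 426, of which 2 had a motif. The gap of 53.3 kb between Gm14236 and Gm24327 on chromosome 2 also held 7, with signals of 5.99 to 401, of which 4 had a motif, 2 on each strand. In each of these 2 gaps the weakest pair of summits lay about 0.2 kb apart. The tied gap between Smug1 and Cbx5 had 6 motifs, 5 of them on the minus strand, and that between Tlx1os and Lbx1 had 7, of which 5 lay on the plus strand.

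At H19, the noncoding RNA gene of an imprinted locus, 5 members lay upstream within 1.13 to 3.87 kb of the TSS. The imprinting control region lies upstream of H19, and there CTCF is known to bind the unmethylated maternal copy and insulate Igf2 from enhancers beyond H19. Which of the 5 members lie inside that region was not mapped. In order from the gene outward their signals were 85.6, 210.2, 221, 219 and 84.4, with replicate 1 ranks of 34579, 19988, 16317, 17124 and 34460 and replicate 2 ranks of 35615, 19246, 21318, 20266 and 34796. Both replicates put the 3 middle summits above the first and the last. The intervals of the last 2 peaks going outward, with signals of 219 and 84.4, overlap at their ends. Of the 5, 4 had a motif, all on the minus strand and pointing toward H19. They are printed on that strand to show that 3 of them hold CpG pairs in the core.
H19 site 1, chr7:142579260-142579278: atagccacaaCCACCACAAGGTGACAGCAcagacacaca
H19 site 2, chr7:142580307-142580325: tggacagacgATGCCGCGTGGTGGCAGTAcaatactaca
H19 site 3, chr7:142580762-142580780: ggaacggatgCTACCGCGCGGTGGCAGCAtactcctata
H19 site 4, chr7:142582032-142582050: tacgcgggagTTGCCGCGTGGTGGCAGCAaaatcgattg
Their motif scores were 14.5, 10.2, 10.8 and 12.3 against a threshold of 10.04, so sites 2 and 3 were called by a small margin. The way the matrix was trained follows an earlier analysis that chose it partly because of this locus, so these calls are no independent result. The strongest of the 5 peaks lay at 142580633 to 142580880.

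Other imprinted genes had members too. From the list of 30, H19 included, 6 genes were nearest to a member (20%), and 19.97% of all 20780 protein-coding genes were. They had 15 members, or 101 per eligible Mb (56.7 to 167), of which 5 are those at H19. All protein-coding genes stood at 52.7 per Mb. The eligible sequence of this list is 0.148 Mb, so its density rests on few peaks. The interval counts neighbouring peaks, such as those at H19, as if they were independent. All 15 members of the list lay upstream, and 11 had a motif. The strongest was near Dlk1, a growth regulator expressed from the paternal copy, at 14.9 kb (chr12:109437745-109438085), with a signal of 477 and ranks of 2795 and 1969. Cdkn1c, a cell cycle inhibitor, had 3 members with signals of 20.99, 417 and 475, and Slc22a18, a transporter gene that shares its gap, had a member of 446. No member was nearest to Igf2.

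Transcription factors of the intestinal epithelium were nearest to a member in 11 of 24 cases (45.8%), where 19.97% of all protein-coding genes were. They had 18 members at 103 per eligible Mb (61.0 to 163), and all protein-coding genes stood at 52.7. Of the 18, 14 had a motif and 14 lay upstream. Gata5, a zinc finger factor of the gut endoderm, had 3, at 12.6, 16.2 and 18.8 kb upstream, with signals of 506, 242 and 355, and the nearest of them pointed toward the gene while the other two pointed away. Cdx2, the homeobox factor that specifies intestinal identity, had a member 7.94 kb downstream of its TSS (chr5:147299200-147299474). The member had a signal of 297 and ranks of 12216 and 13817. Its motif, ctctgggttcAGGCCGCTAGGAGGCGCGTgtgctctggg on the minus strand (chr5:147299324-147299342), scored 11.8. Cdx1, its relative, had 2, with signals of 10.01 and 442, of which the weaker had no peak over its summit in replicate 1. Foxa2, a pioneer factor of endoderm, had a member of signal 329 at 1.67 kb upstream, and Klf4, a factor of differentiated epithelium, had 2 downstream with signals of 34.1 and 153. The eligible sequence of this list is 0.175 Mb, so its density rests on few peaks.

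Genes of the mature epithelium and of the crypt had lower shares than the epithelial factors. These shares were close to or above the 19.97% of all protein-coding genes. The enterocyte, secretory and crypt lists had 38.4, 39.9 and 56.2 members per eligible Mb, against 52.7 for all protein-coding genes. Of 25 enterocyte genes 5 were nearest to a member (20%), and the strongest was at Espn, which encodes an actin bundler of microvilli, at 1.62 kb upstream (chr4:152153842-152154145, signal 459, ranks 2525 and 3494). Slc10a2, the bile acid transporter of the ileum, had a member of 439.6 at 1.75 kb upstream, while Anpep and Sis, brush border enzymes, had members of 20.4 and 44.6 without a motif. Of 25 secretory lineage genes 7 were nearest to a member (28.0%). Cck, which encodes the hormone cholecystokinin, had 3 downstream with signals of 27.6, 355 and 443. Muc2, the main mucin of goblet cells, had a member of 419 at 9.18 kb downstream of a TSS. Of 21 crypt and Wnt genes 5 were nearest to a member (23.8%). Sox4, an HMG-box factor, had members of 388 and 586, the stronger at 4.27 kb upstream (chr13:28957808-28958149, ranks 221 and 357), and Ephb2 and Ephb3, receptors that position cells along the crypt, had 4 and 3. No member was nearest to Myc.

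Genes of the gut wall differed among themselves. Of 23 smooth muscle and mesenchyme genes 10 were nearest to a member (43.5%), with 17 members at 83.2 per Mb (48.5 to 133). That interval includes the 52.7 per Mb of all protein-coding genes. Nkx3-2, a homeobox factor of the gut mesenchyme, led them with a signal of 560 at 4.08 kb upstream (chr5:41768421-41768733, ranks 455 and 587). Barx1, a homeobox factor of stomach mesenchyme, had 6 members on both sides, from 26.2 to 359, and Tagln, a smooth muscle actin-binding protein gene, had a member of 451 at 1.08 kb upstream. Of the 20 enteric neuron and glia genes on these chromosomes 4 were nearest to a member (20%), led by Gfra1, the GDNF receptor subunit, with a signal of 386 at 13.7 kb upstream (chr19:58469448-58469724, ranks 7555 and 6096). Of 20 genes of other organs 5 were (25%), led by Mbp, a myelin protein gene, with a signal of 543 and ranks of 722 and 700. Densities were 24.3 per Mb for the enteric neuron and glia list and 52.6 for that of other organs. The lists of epithelial factors and of mesenchyme thus had the highest shares of genes with a member, and with 20 to 30 genes each the shares were not tested. Whether long gaps or short ones surround these genes was not matched.

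The 10 strongest members had signals of 687 to 756, and all 10 had a motif. They lay within rank 50 of replicate 1 and rank 30 of replicate 2. The first was rank 1 in both, with replicate signals of 380 and 382. It lay 17.8 kb downstream of a TSS of Enah, an actin regulator (chr1:181888754-181889245). The others were nearest to Gm5981, Smug1, Gm49483, Gm6082, Hif1an, Gm12349, Gm42894, Rpl10a-ps3 and Epm2aip1, of which 4 are pseudogenes. Smug1, a DNA glycosylase gene, had the third strongest (signal 703) among 7 members in 1 gap, of which 6 had a motif. In 8 of the 10 the arrow pointed toward the nearest TSS, and 1 of the 10 nearest TSSs, that of Hif1an, was itself bound. As shown above, no such direction was found over all members.

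The 3 strongest members without a motif show that high signal also occurred without the matrix being met. The first lay 1.20 kb upstream of a TSS of Dus3l, a tRNA-modifying enzyme gene (chr17:56763376-56763721, signal 610, ranks 178 and 179). The second lay 12.4 kb downstream of a TSS of Gm13421 (chr2:27552622-27552972, signal 579, ranks 389 and 305). The third lay 9.92 kb upstream of a TSS of Cln6, a gene of the endoplasmic reticulum membrane (chr9:62828697-62829060, signal 544, ranks 818 and 576). Their best matrix scores were 5.44, 6.82 and 0.454. The 150 bases around the Dus3l and Cln6 summits are printed on the plus strand for a reader to inspect, with no capitals because no site was called.
Dus3l, chr17:56763482-56763631: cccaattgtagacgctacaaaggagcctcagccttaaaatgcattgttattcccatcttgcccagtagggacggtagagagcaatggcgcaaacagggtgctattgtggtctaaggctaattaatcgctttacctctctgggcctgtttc
Cln6, chr9:62828790-62828939: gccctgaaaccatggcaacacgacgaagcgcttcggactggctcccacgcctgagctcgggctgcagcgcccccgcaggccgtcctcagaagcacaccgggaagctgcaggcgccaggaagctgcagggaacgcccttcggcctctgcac
The GC content of 301 bases was 50.2% at Dus3l and 63.1% at Cln6, where the median of the members was 48.5%.

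The weakest members stood beside other peaks. The 3 lowest signals were 4.51 near 4930524B15Rik, 4.51 near Rps10 and 4.56 near Dock5. Each lay 0.2 to 0.218 kb from another optimal summit, none had a motif or was in the conservative list, and each lacked a peak over its summit in 1 replicate.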

How the data were processed

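Peak lists on mm10 were deposited for each replicate and, after filtering by the irreproducible discovery rate (IDR), as an optimal list of 73465 peaks and a conservative list. The IDR lists derive, per the deposited descriptions, from the replicates' lists and a pooled list. Neither the aligner nor the peak caller, the IDR threshold or a control is given in the sources used here. As peak signal the authors deposited an enrichment value whose normalization is not stated. The summit is the peak's start plus the offset the authors deposited. The lists hold no read counts, so depth is unknown.

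Genes and all transcript starts came from GENCODE M21. Soft-masking was read from the RefSeq copy of GRCm38.p6, whose chromosome lengths match mm10 but whose masking may differ from other copies of mm10. The members and the gene lists were chosen with earlier results of these data known. So was the training of the 19-base motif matrix, built in 6 rounds from a consensus seed of the known CTCF motif with a pseudocount of 1. The 5000 strongest peaks of even-numbered chromosomes scored the odd-numbered ones and the reverse, and the threshold was reached by 5% of windows 1 kb from the training peaks. Densities are summits per Mb of eligible sequence with exact Poisson intervals, and shares have Wilson 95% intervals. No p-value was computed, because there is 1 group of 2 replicates. Where no source says that the replicates share no animals, the spread between them may be technical.

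Named regions are the 10 strongest members (chromosome 18 left out), the 3 strongest without a motif, the 3 weakest, the strongest of each gene list, those nearest H19, Igf2, Myc and Cdx2, the 3 gaps with most members (ties in chromosome order) and the motif-bearing member of median signal. Other members beside listed genes, the Gapt region and the split by gap length were chosen after values were seen. Results were recomputed with the conservative list, each replicate alone, other TSS sets, masking, signal, motif and distance limits. Python 3.11.15, numpy 2.4.6, scipy 1.17.1, numba 0.67.0 and matplotlib 3.10.9 were used. The code for densities was run on uniform random summits of 1 chromosome, and that for motif calls on sites planted in random bases. The planted sites were drawn from the matrix that scored them. These runs check the code and say nothing about the peaks.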

Additional observations from a re-analysis of the deposited data

How the results depend on the processing

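The number of members was 10952 with the conservative list, 11309 and 11388 with replicate 1 or 2 left out, 7805 with protein-coding TSSs only, 15198 with masked summits kept and 10817 with 1 TSS per gene, a setting added after the data were seen. Leaving out a replicate, by taking as many of the strongest peaks of the other, moved none of the other measures by more than its interval. The ratio of density at 1 to 20 kb to that beyond was above 2 in each setting and moved to 2.97 with protein-coding TSSs, 2.48 with masked summits, 2.61 among peaks above the median signal and 2.14 with 1 TSS per gene. The median signal percentile was 69.1 with protein-coding TSSs and 57.5 with masked summits. The motif share was 78.3% in the conservative list, 80.6% with masked summits, 89.3% above the median signal, 46.4% at a threshold reached by 1% of flanking windows, 75.6% within 50 bases and 78.3% with the seed at up to 2 mismatches. The share of motifs pointing at the TSS was 49.7% with 1 TSS per gene. The upstream share was 67.3% with protein-coding TSSs, 59.9% at 2 to 20 kb and 68.0% with 1 TSS per gene. The nearest TSS was bound in 24.4% with the conservative list, 36.2% with protein-coding TSSs, 27.0% with masked summits and 27.2% with 1 TSS per gene. Summits of the lists lay within 50 bases of each other in 98.1%, the lower of the 2 replicates. The cause of these shifts was not tested. No paired analysis was possible because there is 1 group. Depth is unknown, so weak peaks cannot be set against reads. The tissue is a mixture, so more cells with a site bound and stronger binding per cell cannot be told apart.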

Other observations

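Several genes were nearest to unusually many members, chosen here after their values were seen. Of 8169 genes nearest to a member, 5921 had 1 member and 12 had 6 or more. Gm25622, at the gap described beside Igha, had 11, of which 10 motifs lay on the plus strand. Coro2b, an actin-binding coronin gene, had 6 members in 2 gaps, and all 6 motifs lay on the minus strand, with signals of 23.1 to 492. Gadd45g, a stress-response gene, had 7 members, of which 5 had a motif, all on the plus strand. Cbx8, a Polycomb subunit gene, had 8 members on both sides, with 5 motifs, 3 of them on the plus strand. Id2, which encodes an inhibitor of helix-loop-helix factors, had 7 members of a median signal of 26.8, of which 1 reached 618.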
